A study of Mus musculus with 4 samples.

Results

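The genes described here are 34 mouse genes known to be imprinted, a list chosen with earlier results of these data known. Of the 34 genes, 31 had a probe set annotated with that single symbol, always 1 probe set per gene. The series held 19938 measured genes. H19 had no probe set listed under its name, and the probe sets of Gnas and Ube3a carry several gene symbols, so these 3 genes were not read. Expression was measured on 4 arrays of CD4+ cells from the spleen of C57BL/6 mice. Wild type CD4+ splenocytes supplied 2 arrays, and CD4+ lymphoma cells supplied the other 2, from mice in which both copies of Tet2 carry a gene trap, an insertion that cuts transcription short. Tet2 encodes an enzyme that oxidises 5-methylcytosine in DNA. The sources used here do not give ages, the number of animals behind an array, cell purity or the clonal make-up of each lymphoma. The trap and the malignancy were present in the same arrays and cannot be told apart.

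An imprinted gene is transcribed from the maternal or the paternal copy only, because a nearby control region carries DNA methylation on 1 parental copy. Most imprinted genes lie in clusters that share such a control region. Many act in fetal growth, placenta and brain and are little used in adult blood cells, and some are imprinted in a few tissues only. These arrays measured RNA and neither DNA methylation nor the parental copy in use, so a level here says nothing about which copy was read.

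Intensities are the authors' processed values on a linear scale. Without detection calls, a dim reference was taken from 1224 olfactory, vomeronasal and taste receptor genes, families that CD4+ cells are not known to use. The 95th percentile of their intensities was 86.6 and 99.7 on wild type arrays 1 and 2, and 87.3 and 84.2 on lymphoma arrays 1 and 2. Probe sets differ in response, so this level is a guide and not a detection limit, and levels of different genes are not compared. The arrays had median intensities between 129.8 and 141.8. Wild type 1 and lymphoma 1 held exactly the same value for 571 of 35556 probe sets, and wild type 2 and lymphoma 2 for 498, against at most 1 for any other combination of arrays. The same-numbered arrays were therefore treated as a possible processing pair, and each difference is also given within pair 1 and within pair 2. Cd4, which encodes the protein on which the cells were collected, and the T cell gene Cd3e were bright on every array (at least 4552 and 5806). B cell markers were lower in lymphoma, with their 7 measured genes summing to 16181 and 10546 in wild type and to 2188 and 1042 in lymphoma, and all 7 fell (Cd79a, Cd79b, Ms4a1, Pax5, Blk, Cr2 and Fcer2a). Of macrophage and monocyte markers 5 of 6 measured were called lower in limma, and of dendritic cell markers 6 of 7, where 2.46% of all genes were. Lyz2, the macrophage marker not called, was also lower on both lymphoma arrays. The groups of Zbtb46, the dendritic cell marker not called, overlapped. The part of these cells in the values below was not tested. In bulk samples fewer cells of a type and less RNA per cell cannot be told apart. Tet2 had intensities of 979.9 and 1016 in wild type and 596.1 and 398.6 in lymphoma (log2 difference -1.03, SE 0.24, adjusted p = 0.0771 in limma), above the threshold of 0.05 used here.

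The promoters of the 4 members whose values stood out most are shown first, because their CpG pairs, the bases that DNA methylation marks, differ in density. Each line gives the 250 bases before a RefSeq transcript start in build GRCm38.p6, read 5′ to 3′ on the gene's strand, with every CpG in capitals. Grb10 is listed with 2 starts, 9449 bases apart. The upstream window is chr11:12037421-12037670 (minus strand), the downstream window is chr11:12027972-12028221 (minus strand), that of Rasgrf1 is chr9:89909525-89909774 (plus strand), that of Plagl1 is chr10:13090582-13090831 (plus strand) and that of Peg3 is chr7:6730420-6730669 (minus strand).
Grb10 upstream start: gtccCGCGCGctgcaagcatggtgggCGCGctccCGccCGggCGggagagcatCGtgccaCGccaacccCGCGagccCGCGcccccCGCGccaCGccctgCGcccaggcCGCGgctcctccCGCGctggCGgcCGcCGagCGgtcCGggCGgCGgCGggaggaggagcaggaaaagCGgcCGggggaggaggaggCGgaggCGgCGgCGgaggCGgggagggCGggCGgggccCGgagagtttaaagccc
Grb10 downstream start: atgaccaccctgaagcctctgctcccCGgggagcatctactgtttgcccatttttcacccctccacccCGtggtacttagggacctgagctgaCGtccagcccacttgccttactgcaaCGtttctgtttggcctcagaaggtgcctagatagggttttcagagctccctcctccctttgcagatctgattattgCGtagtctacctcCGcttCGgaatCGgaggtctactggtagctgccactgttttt
Rasgrf1: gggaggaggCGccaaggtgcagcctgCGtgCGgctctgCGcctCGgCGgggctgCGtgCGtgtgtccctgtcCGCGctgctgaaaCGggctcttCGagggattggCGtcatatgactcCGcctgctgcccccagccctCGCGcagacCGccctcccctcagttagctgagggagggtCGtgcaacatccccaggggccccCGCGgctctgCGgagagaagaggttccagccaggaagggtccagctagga
Plagl1: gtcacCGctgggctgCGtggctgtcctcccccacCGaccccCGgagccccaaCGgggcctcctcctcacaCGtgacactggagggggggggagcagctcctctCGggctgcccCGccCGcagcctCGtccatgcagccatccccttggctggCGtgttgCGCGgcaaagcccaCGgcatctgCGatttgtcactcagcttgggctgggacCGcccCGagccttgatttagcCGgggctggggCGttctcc
Peg3: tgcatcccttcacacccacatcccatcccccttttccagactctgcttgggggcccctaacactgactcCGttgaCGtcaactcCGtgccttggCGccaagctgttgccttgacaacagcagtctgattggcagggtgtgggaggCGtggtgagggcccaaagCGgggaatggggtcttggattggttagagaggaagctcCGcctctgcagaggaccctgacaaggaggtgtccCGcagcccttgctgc

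The upstream Grb10 window held 40 CpG pairs in 250 bases and the downstream window 8. The windows of Rasgrf1, Plagl1 and Peg3 held 21, 19 and 8. Over the whole 300-base windows (250 before to 50 after a start), 28 of the 34 members had a window in use. A filter by chromosome was applied to the member windows and not to those of all genes. The richest window of these 28 members had a median of 17 CpG pairs, against 8 over 27025 genes. The upstream Grb10 window, with 45, lay above 98.1% of 32851 windows. The hexamer TGCCGC, which the imprint-keeping protein Zfp57 is known to bind when methylated, was searched on both strands. It lay in the richest window of 8 of 28 members (28.6%) and of 12.2% of all genes. The hexamer contains a CpG, so CpG-rich windows hold it more often, and a match is a description and not a binding site. The windows of Peg3 and Usp29, which are transcribed in opposite directions, overlap by 263 bases.

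No member passed the test between lymphoma and wild type. In limma, with Benjamini-Hochberg adjustment over 19938 genes, 0 of 31 measured members were called at an adjusted p under 0.05, where 4.27% of all genes were called (1.82% higher and 2.46% lower). Without adjustment, Peg3 and Plagl1 had a p under 0.05, both higher, which is 2 of 31 where 15.6% of all genes had one in either direction and 8.73% were higher. The median log2 difference was -0.08 over the members and -0.04 over all genes. With the replicate number as a block, Peg3 was called (adjusted p = 0.0497), 1 of 31 members where 4.94% of all genes were called and 2.15% were called higher. Both lymphoma values lay above both wild type values for 4 members, where 20.6% of all genes had this order, and below them for 9, where 23.5% had it. Together these are 13 of 31 members whose groups did not overlap, against 44.1% of all genes. By parental copy, the 18 measured genes known as paternally expressed had a median of -0.10 and the 13 known as maternally expressed -0.06.

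**Figure D1:**
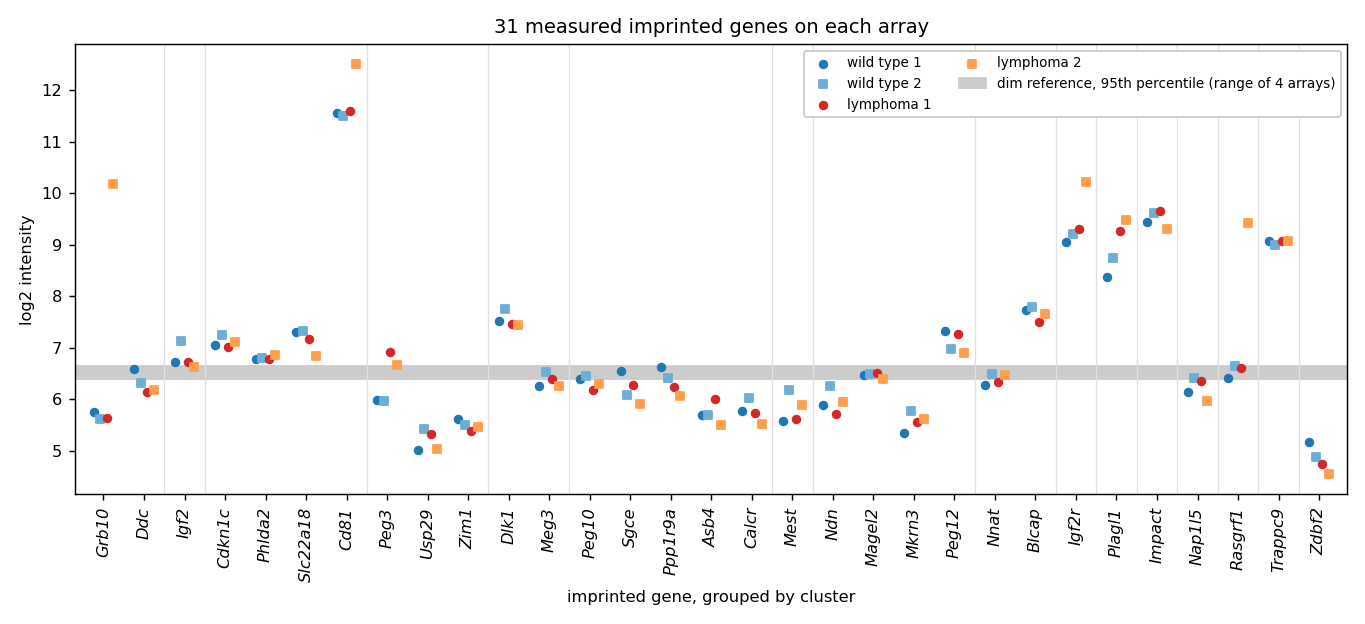
Log2 intensity (vertical axis) of the 31 measured members (horizontal axis, grouped by cluster) on each of the 4 arrays; circles are number 1 and squares number 2, blue is wild type and red or orange is lymphoma, and the grey band is the range of the 95th percentile of the receptor genes. Grb10 and Rasgrf1 stand high on lymphoma 2 alone, while 27 of the 31 members lie within 2-fold in both pairs, as do 89.8% of all genes.

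Grb10 encodes an adaptor that binds the insulin and IGF1 receptors and dampens their signalling, and it is read from the maternal copy in most tissues. Its intensity was 53.65 and 48.8 in wild type, 49.89 on lymphoma 1 and 1164 on lymphoma 2. The gene was thus under the dim reference on 3 arrays and 13.8 times that reference on lymphoma 2, and the groups overlapped. Within pair 1 the log2 difference was -0.10, and within pair 2 it was 4.58. Since wild type 2 was under the dim reference, the signal in pair 2 is given as at least 11.7-fold higher, taking that array's reference level in place of the lower measured value. Over the groups the difference was 2.24 (SE 1.30, 95% interval -0.91 to 5.38, adjusted p = 0.527 in limma). The mean log2 intensity was 5.68 ± 0.10 (SD, n = 2) in wild type, and the lymphoma mean of 7.91 ± 3.21 (SD, n = 2) was set by lymphoma 2. Without lymphoma 2 the difference was -0.04 (adjusted p = 0.989), and without lymphoma 1 it was 4.51 (adjusted p = 1e-09), a fit in which 1 lymphoma array stands for the group and the spread comes from the wild type pair.

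Rasgrf1, an exchange factor that activates Ras and is read from the paternal copy in brain, had the same kind of pattern. It measured 85.29 and 99.69 in wild type, 98.11 on lymphoma 1 and 689.1 on lymphoma 2. The wild type values were at or just under the dim reference, lymphoma 1 lay between them, and lymphoma 2 was 8.18 times the reference. The log2 difference was 0.20 within pair 1 and 2.79 within pair 2. With wild type 2 at the level of the reference, this is at least 6.91-fold higher in pair 2. The group difference was 1.50 (SE 0.82, 95% interval -0.48 to 3.47, adjusted p = 0.49 in limma), 0.09 without lymphoma 2 and 2.90 (adjusted p = 2.73e-07) without lymphoma 1. Grb10 and Rasgrf1 were the members at least 4-fold above every other array on lymphoma 2, 2 of 31 (6.45%), where 42 genes (0.211%) of all were. The list was chosen with earlier results of these data known, so no excess can be read from these shares. On lymphoma 1 no member reached this, where 60 genes (0.301%) did.

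Marker lists of other cells were set beside these values, array by array, in the order wild type 1, wild type 2, lymphoma 1 and lymphoma 2. The 10 stroma and endothelium markers summed to 2412, 2193, 4349 and 1645, but 1 gene, the matrix proteoglycan gene Dcn, carried the lymphoma 1 value, with 60.01, 54.98, 2762 and 50.84. The other 9 summed to 2352, 2138, 1586 and 1594, lower on both lymphoma arrays. Pecam1 carried most of that fall, with 1352, 1066, 610.4 and 697.4, and Kdr was highest on lymphoma 1 (139.5). The 5 measured stem and progenitor markers summed to 960, 899, 415 and 412. The receptor gene Kit carried most of that fall, with 626.6, 511.8, 107.7 and 130.9. Kit fell by 2.25 on the log2 scale (SE 0.20, adjusted p = 0.00523 in limma). Cd34 and Meis1 were also lower on both lymphoma arrays, and the groups of Gata2 and Mecom overlapped. The 5 measured erythroid markers summed to 476, 644, 409 and 656, and the 4 NK cell markers to 1143, 1044, 1000 and 1378. Both sums were highest on lymphoma 2, but their genes differed. Eomes carried most of the NK cell sum on lymphoma 2 (538.1, 431.3, 816.4 and 901.5). Ncr1 and Klrd1 were lower on both lymphoma arrays, and Klrb1c was highest on lymphoma 2 (184.3). Of the erythroid genes, Alas2 and Epor were highest on wild type 2, and Klf1, Ermap and Rhag on lymphoma 2. Klf1 and the membrane protein gene Rhag were under the dim reference on every array (Rhag 20.37, 17.17, 25.93 and 64.22). The 5 neutrophil markers summed to 427, 467, 559 and 546, the 4 measured megakaryocyte markers to 382, 457, 359 and 423, and the 2 CD8 T cell markers to 1241, 692, 385 and 424. The 7 T cell markers summed to 22934, 23019, 26157 and 27251, but their genes differed. Cd3d, Cd3e, Cd3g and Cd4 were higher on both lymphoma arrays, and the groups of Cd28 overlapped. Cd5 was lower on both (3929, 3479, 2443 and 1557), and Trat1 was lowest on lymphoma 1 (458.4, 420.9, 124.9 and 690.4). The part of other cells in the values of Grb10 and Rasgrf1 was not tested.

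**Figure D2:**
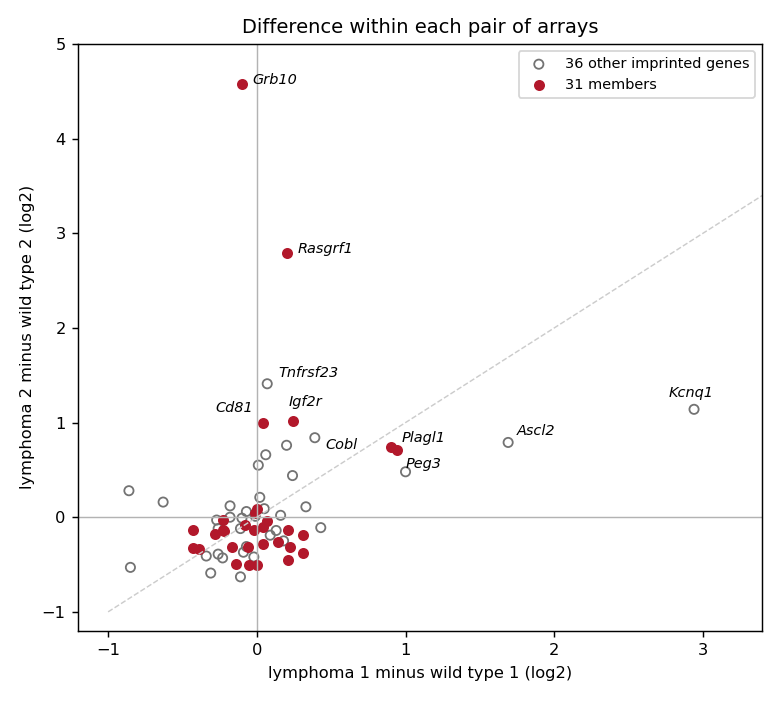
Log2 difference within pair 2 (lymphoma 2 minus wild type 2, vertical axis) against that within pair 1 (lymphoma 1 minus wild type 1, horizontal axis) for the 31 measured members (red) and 36 other measured imprinted genes (open circles); the dashed line marks equal differences. Grb10 (-0.10 and 4.58) and Rasgrf1 (0.20 and 2.79) lie far up with almost no horizontal shift, Kcnq1 lies to the right, and Plagl1 and Peg3 lie near the dashed line.

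The genes around Grb10 and Rasgrf1 did not share this pattern as a block. The 3 nearest measured genes on each side, by RefSeq order, were read for both. Ddc, an aromatic amino acid decarboxylase in the Grb10 cluster and a member itself, measured 95.58 and 79.76 in wild type and 71 and 72.79 in lymphoma. Cobl, an actin nucleator on the other side of Grb10, measured 147.2 and 194.4 in wild type and 193.2 and 349 in lymphoma, with log2 differences of 0.39 and 0.84 within pairs 1 and 2 (adjusted p = 0.446 in limma). Fignl1, an ATPase of DNA repair beyond Ddc, was higher on both lymphoma arrays (261.7 and 279.1 against 134.5 and 125) and rose by 1.06 (SE 0.17, adjusted p = 0.025 in limma). Ikzf1, a lymphoid transcription factor, had its lowest value on lymphoma 2 (1717, against 2498 to 2846 elsewhere). Next to Rasgrf1, the 6 genes had pair 2 differences between -1.45, for the lysosomal protease gene Ctsh, and 0.64, for Tmed3. Ctsh fell by 1.67 over the groups (SE 0.21, adjusted p = 0.0114 in limma).

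**Figure D3:**
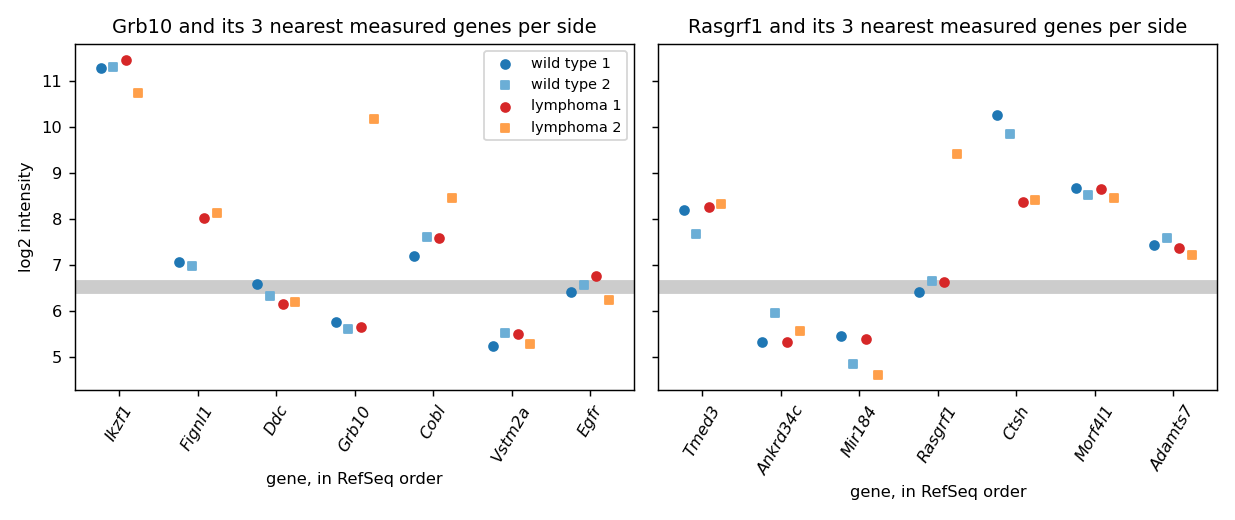
Log2 intensity (vertical axis) on each array for Grb10 (left) and Rasgrf1 (right) with the 3 nearest measured genes on each side in RefSeq order (horizontal axis); colours and grey band show the arrays and the dim reference. On lymphoma 2 Grb10 reached 1164 and Rasgrf1 689.1, and no neighbour had a shift of that size.

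Peg3 and Plagl1 were the members with higher values in both pairs, by similar amounts. Peg3, a zinc finger protein gene read from the paternal copy, measured 63.35 and 62.59 in wild type and 121.6 and 102 in lymphoma. Both wild type values were under the dim reference and both lymphoma values just above it, at 1.39 and 1.21 times. The log2 difference was 0.94 within pair 1 and 0.71 within pair 2, and 0.82 over the groups (SE 0.18, 95% interval 0.39 to 1.25, adjusted p = 0.0646 in limma). Against the dim reference levels in place of the lower wild type values, the lymphoma mean was at least 1.20-fold higher, 1.77-fold being the measured ratio. Whether Peg3 passed depended on the setting, with an adjusted p between 0.0415 and 0.0767 over the settings that kept all arrays and the gene. With 1 array left out it ranged from 0.0198, without lymphoma 2, to 0.351, without wild type 2. Its bidirectional partner Usp29, a ubiquitin protease gene, measured 32.36 and 42.69 in wild type and 40.07 and 32.72 in lymphoma, under the dim reference on every array. Zim1, a zinc finger gene of the same cluster read from the maternal copy, stayed between 41.81 and 49.11.

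Plagl1 encodes a zinc finger transcription factor that is known to regulate other imprinted genes and is read from the paternal copy. It measured 331.7 and 426.1 in wild type and 616.8 and 710.3 in lymphoma, well above the dim reference on every array and with no overlap of the groups. The log2 difference was 0.90 within pair 1 and 0.74 within pair 2, and 0.82 over the groups (SE 0.21, 1.76-fold, 95% interval 0.31 to 1.32, adjusted p = 0.104 in limma). It was not called in any setting with all arrays, and was called without lymphoma 1 (0.92, adjusted p = 0.0367). Near Plagl1 in gene order, the membrane fusion gene Stx11 rose by 2.16 (SE 0.31, adjusted p = 0.017 in limma), with 744.7 and 742.7 in wild type and 2408 and 4581 in lymphoma. The splicing factor gene Sf3b5 between them measured 750.8 and 423.6 in wild type and 837.2 and 2291 in lymphoma (adjusted p = 0.282).

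Igf2r, the receptor that carries IGF2 to lysosomes for breakdown and is read from the maternal copy, measured 534 and 588.6 in wild type and 631.9 and 1196 in lymphoma. Its log2 difference was 0.24 within pair 1 and 1.02 within pair 2, so lymphoma 2 stood above the other arrays. The group difference of 0.63 (SE 0.31, adjusted p = 0.429 in limma) did not pass, was 0.17 without lymphoma 2 and was 1.09 (adjusted p = 0.00841) without lymphoma 1. Airn, the long RNA that runs antisense through Igf2r and silences it on the paternal copy, measured 489.3 and 586.1 in wild type and 268.8 and 711.7 in lymphoma. Its difference was -0.86 within pair 1 and 0.28 within pair 2 (adjusted p = 0.861). The sources used here do not state the strand of the probes, so signal of these overlapping genes may be shared.

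The ligand of that receptor, the fetal growth factor Igf2, measured 106.3 and 140.2 in wild type and 106.3 and 99.24 in lymphoma. These values were slightly above the dim reference, and the 99th percentile of the receptor genes, between 142.6 and 168.0 across arrays, was reached on none. The group difference was -0.25 (SE 0.20, 95% interval -0.73 to 0.23, adjusted p = 0.688 in limma). Dlk1, a membrane ligand related to Notch ligands, measured 183.9 and 216.4 in wild type and 176.4 and 174.7 in lymphoma (-0.18, SE 0.18, adjusted p = 0.758). Meg3, the maternally expressed long RNA of the Dlk1 cluster, measured 76.54 and 91.86 in wild type and 84.37 and 76.56 in lymphoma, under the reference on every array. For Igf2, Dlk1 and Meg3 no array stood apart in the way lymphoma 2 did for Grb10.

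Members of the Kcnq1ot1 domain differed in pattern. Cd81, a tetraspanin of lymphocyte membranes whose imprinting is known from placenta, measured 3009 and 2897 in wild type and 3104 and 5796 in lymphoma. Its log2 difference was 0.04 within pair 1 and 1.00 within pair 2, and the group difference of 0.52 (SE 0.29, adjusted p = 0.507 in limma) was 0.07 without lymphoma 2 and 0.97 (adjusted p = 0.00675) without lymphoma 1. Cdkn1c, an inhibitor of cyclin-dependent kinases, measured 132.2 and 152.2 in wild type and 130.2 and 138.1 in lymphoma (-0.08, SE 0.17, 95% interval -0.50 to 0.34). Phlda2, a regulator of placental growth, stayed between 109.4 and 115.8. The transporter gene Slc22a18 measured 159.3 and 160.9 in wild type and 144.4 and 114.8 in lymphoma. Among the members, Grb10, Rasgrf1, Igf2r and Cd81 were at least 2-fold higher within pair 2, which is 4 of 31 where 3.74% of all genes were. Here too the list was chosen with earlier results known, so no excess can be read from the count. No member was at least 2-fold higher within pair 1, where 3.57% of all genes were, or within both pairs, where 1.50% were. No member was at least 2-fold lower in either pair, where 3.69% of all genes were in pair 1 and 3.16% in pair 2.

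**Figure D4:**
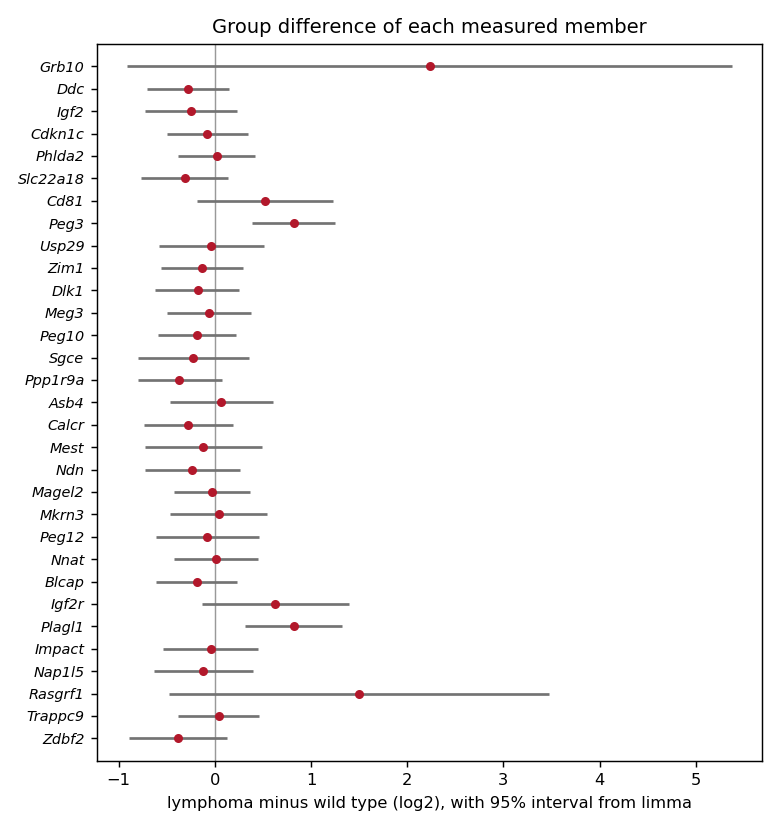
Log2 difference of lymphoma minus wild type (horizontal axis) for each measured member (vertical axis), with points at the limma estimate from 2 arrays per group and lines for its unadjusted 95% interval. The intervals of Peg3 (0.39 to 1.25) and Plagl1 (0.31 to 1.32) lie above 0, and that of Grb10 (-0.91 to 5.38) is the widest.

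The other 25 measured members, those with a difference of at most 0.5 in size, gave group differences between -0.38 and 0.06, with SEs from 0.16 to 0.25. Their 95% intervals together spanned -0.89 to 0.60. Within pair 1 they differed by -0.43 to 0.31 and within pair 2 by -0.51 to 0.09. Of the 25, 9 had groups that did not overlap, all lower in lymphoma, and 16 overlapped. Of all genes, 23.5% were lower without overlap, and 44.1% had no overlap in either direction. The 6 members left out by the limit of 0.5 were all higher in lymphoma. The single direction of the 9 thus depends on that selection, and no excess of lower members can be read from it. The lowest difference was that of Zdbf2 (35.92 and 29.39 in wild type, 26.69 and 23.43 in lymphoma), all under the dim reference.

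By level, 12 of the 31 members were above the dim reference on both wild type arrays (63.8% of all genes were), and 14 on both lymphoma arrays (64.0% of all genes). The 12 were above it on all 4 arrays, where 61.3% of all genes were, and the 2 added in lymphoma were Peg3 and Rasgrf1, the latter with lymphoma 1 at 1.12 times the reference. The count depended on the level chosen, with 20 members above the 90th percentile in each group. At the 99th percentile 7 members were above in both groups, namely Cd81, Dlk1, Blcap, Igf2r, Plagl1, Impact and Trappc9. Impact, a regulator of the stress kinase Gcn2, measured 693.8 and 781 in wild type and 810.4 and 629.5 in lymphoma. Trappc9, a vesicle transport gene, stayed between 510.5 and 542.3, and Blcap between 180.9 and 221.7.

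Of all 19938 genes, 5557 were above the reference on no array. The 11 members under the reference on every array were Usp29, Zim1, Meg3, Peg10, Asb4, Calcr, Mest, Ndn, Mkrn3, Nap1l5 and Zdbf2, with intensities from 23.4 to 91.86. They include the hydrolase-like gene Mest and the retrotransposon-derived Peg10, both paternally expressed, and the calcitonin receptor gene Calcr. Of the Prader-Willi and Angelman region, the MAGE family gene Ndn measured 59.42 and 76.19 in wild type and 52.77 and 61.59 in lymphoma. Its relative Magel2 stayed between 83.85 and 91, Mkrn3 between 40.92 and 54.35, and Peg12 between 118.6 and 161.5. In the Peg10 cluster, the sarcoglycan gene Sgce measured 94.15 and 67.51 in wild type and 77.68 and 59.76 in lymphoma. Ppp1r9a, an actin-binding phosphatase regulator gene, measured 99.1 and 85.1 against 75.63 and 67.07. The remaining member near the reference, the neuronal proteolipid gene Nnat, stayed between 77.13 and 90.53.

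Of 48 further imprinted genes, 36 were measured, and 0 were called in limma in either direction, where 4.27% of all genes were. Without adjustment, 3 of the 36 had a p under 0.05 and were higher, and 2 were lower. Of all genes 15.6% had such a p in either direction and 8.73% were higher. The 2 lower genes were Qpct (91.44 and 67.2 in wild type, 50.7 and 46.43 in lymphoma) and Inpp5f (600 and 612.5 in wild type, 482.6 and 406.6 in lymphoma). The examples named here were chosen after their values were seen. Kcnq1, a potassium channel gene of the Kcnq1ot1 domain, measured 116.5 and 149.4 in wild type and 895.7 and 328.9 in lymphoma, higher by 2.94 within pair 1 and 1.14 within pair 2 (group difference 2.04, SE 0.45, adjusted p = 0.0709). Ascl2, a transcription factor gene of the same domain that acts in placenta and follicular helper T cells, measured 180.2 and 159.7 in wild type and 582.6 and 275.6 in lymphoma (1.24, SE 0.35, adjusted p = 0.138). Both were highest on lymphoma 1. Tnfrsf23, a decoy death receptor gene of that domain, was highest on lymphoma 2, with 347 against 130.4 to 151.7 elsewhere. Atp10a, a lipid flippase gene beside the Prader-Willi region, measured 586.5 and 620.9 in wild type and 1175 and 866.7 in lymphoma (adjusted p = 0.139).

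Of 20 genes that keep or remove imprint methylation, 19 were measured, 1 rose and none fell in limma, where 1.82% of all genes rose and 2.46% fell. Without adjustment, 2 had a p under 0.05 and were higher, and 3 were lower, namely the methylcytosine oxidase genes Tet1, Tet2 and Tet3. Of all genes, 15.6% had such a p in either direction and 8.73% were higher. Tet1 measured 526.5 and 534.3 in wild type and 331.9 and 163 in lymphoma (-1.19, SE 0.34, adjusted p = 0.137). Tet3 measured 1630 and 1120 in wild type and 934.6 and 587.2 in lymphoma (-0.87, SE 0.30, adjusted p = 0.219). Like Tet2, both were lower in both pairs and did not pass the test. Uhrf1, which recruits the maintenance methyltransferase, rose by 1.15 (SE 0.20, adjusted p = 0.0302), by 1.15 within pair 1 and 1.14 within pair 2. The other higher gene, Zfp445, measured 775 and 899.9 in wild type and 1110 and 1190 in lymphoma (0.46, SE 0.18, adjusted p = 0.287 in limma). The imprint keeper Zfp57 measured 108.5 and 125.1 in wild type and 103 and 102.3 in lymphoma, and its partner Trim28 1208 and 1119 against 1498 and 1200. Of 22 germline genes known to be silenced by promoter methylation in other tissues, all were measured, 0 were called in limma and 0 had an unadjusted p under 0.05. All 22 lay within 2-fold in both pairs, as did 89.8% of all genes. Of the 22, 17 were under the dim reference on every array, where 5557 of 19938 genes were.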

How the data were processed

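RNA of CD4+ cells, collected with a biotinylated CD4 antibody on magnetic columns, was labelled with an Affymetrix kit and read on 4 arrays, per the labels' protocols. The deposited intensity values, 1 per probe set on a linear scale, were made by the authors with Affymetrix Expression Console, per the submitters' processing notes. Normalization, summarisation and tool version were not given in the sources used here.

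Probe sets were named from GEO's platform annotation. Of 35556, 21789 had 1 symbol (21698 matched a RefSeq gene identifier, 0 symbols changed), 1621 had several and 12146 were not listed. The probe set with the highest mean was kept per gene, leaving 19938 genes. Log2 values were taken without pseudocount or filter. Groups were compared two-sided with limma 3.58.1 under R 4.3.3, on group alone and with a variance trend, with Benjamini-Hochberg adjustment over all genes. The fit had 2 residual and 4.24 prior degrees of freedom. Nothing says that the arrays came from separate animals, so p-values measure the spread between these arrays, which may be technical, and their number limits the precision. The procedure was tested on simulated data. Promoter windows are from RefSeq (GRCm38.p6). Figures used matplotlib 3.10.9.

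The labels number both groups 1 and 2. Deviations of same-numbered arrays from their group means correlated at 0.228 over genes. With 2 pairs this does not settle a pairing, and the basis for giving values within pairs is the identical values of same-numbered arrays. Members and lists were chosen with earlier results of these data known. All members are named, with called members and Grb10, Igf2, Meg3, Dlk1, Igf2r and Cdkn1c given on every array, and of the imprinted, imprint keeper and germline lists the genes called. Folds against a level under the dim reference are lower bounds that take the reference in its place. Members with a difference over 0.5, Tet1, Tet3, Zfp445 and neighbouring genes were singled out after their values were seen. So were Dcn, Pecam1, Kdr, Kit, Lyz2, Zbtb46 and the single T cell, NK cell, erythroid and progenitor genes. Alternatives are given in the closing section.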

Additional observations from a re-analysis of the deposited data

How the results depend on the processing

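The count of 0 members higher became 1 (Peg3) with quantile normalization, with array medians subtracted, with a robust variance trend and with the replicate block. Of 19938 genes, 338, 480, 442 and 429 were called higher in these settings, in that order, against 362 in the main fit. Peg3 was left out by the filter on the lowest tercile. The count of members lower was 0 in all settings. With 1 array left out, calls on members ranged from 0 to 5 higher (Grb10, Rasgrf1, Igf2r, Cd81 and Plagl1 without lymphoma 1), on other imprinted genes from 0 to 3 higher and 0 to 1 lower, and on all genes from 0 to 1057 higher and 0 to 843 lower, the zeros without a wild type array. In such a fit the lone array is assumed to vary like the other group. Members above the dim reference in wild type numbered 20 at the 90th percentile and 7 at the 99th, and in lymphoma 20 and 7. Small differences changed sign with quantile normalization for Usp29 (0.05), Meg3 (0.03), Magel2 (0.07), Peg12 (0.01) and Trappc9 (-0.05), and with array medians subtracted for Usp29 (0.001) and Magel2 (0.01). The cause was not tested. With 1 array left out, differences ranged from -0.04 to 4.51 for Grb10, -0.18 to 0.02 for Cdkn1c, -0.02 to 0.06 for Phlda2, -0.24 to 0.16 for Usp29, -0.19 to 0.07 for Meg3, -0.47 to 0.01 for Sgce, -0.19 to 0.32 for Asb4, -0.42 to 0.18 for Mest, -0.09 to 0.03 for Magel2, -0.17 to 0.24 for Mkrn3, -0.26 to 0.11 for Peg12, -0.10 to 0.13 for Nnat, -0.23 to 0.14 for Impact and -0.31 to 0.07 for Nap1l5. The replicate block changed no call on a member other than that on Peg3, and gave 429 genes higher and 555 lower over all genes. Signals near the dim reference can hide changes of the members that lie there.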
